A study of Mus musculus with 12 samples.

Results

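The microRNA mmu-miR-155 was followed across mouse embryonic fibroblasts with and without the stress sensor ATF6b. It was taken by its array name. It had been chosen by its genotype differences on these same arrays, so those differences are given as a description with no test. It is 1 of 650 microRNAs (miRNAs) on the array, of which 611 are mouse, 1 of the 176 mouse miRNAs that were tested, and 1 of the 93 detected on all 12 arrays. The fibroblasts had a C57BL/6 background. They carried wild-type ATF6b (labelled ATF6bWT, here WT) or lacked it (ATF6bKO, here KO). Cells of each genotype were left untreated or were exposed to tunicamycin at 2 ug/mL, for 12 h or for 24 h, which makes 6 groups of 2 arrays, 1 from each of 2 experiments. How ATF6b was deleted, and how many embryos or lines stand behind each genotype, was not found in the labels. Differences between the lines and the loss of ATF6b therefore cannot be told apart.

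Mature miRNAs are short RNAs that guide Argonaute proteins to partly matching sites in messenger RNAs, mostly through the seed, the bases near the 5′ end. miR-155 is cut from the non-coding Mir155hg transcript, also called BIC. It is best known from activated lymphocytes and macrophages, where NF-kB and AP-1 drive that transcript and where miR-155 represses, among others, the signalling inhibitors Socs1 and Inpp5d. Tunicamycin blocks N-linked glycosylation, which leaves misfolded glycoproteins in the endoplasmic reticulum. ATF6b is a membrane-bound transcription factor of that compartment, and its cytosolic part is released by cleavage under such stress.

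The sequences show the strand that the array name was matched to and that its seed is its own. They come from RefSeq on GRCm38.p6. The array name carries no arm and was matched to the 5p strand, which the plain name has traditionally meant. Probe sequences were not used to check this match. The mature strand lies at chr16:84714143-84714165 on the plus strand and has 23 bases, with the seed (bases 2 to 8) in capitals. The Mir155 hairpin lies at chr16:84714140-84714204 and has 65 bases, with the 5p strand in capitals. The 3p strand, at chr16:84714182-84714202 with 21 bases, is shown with its seed in capitals.
mmu-miR-155-5p: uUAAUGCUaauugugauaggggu
Mir155 hairpin: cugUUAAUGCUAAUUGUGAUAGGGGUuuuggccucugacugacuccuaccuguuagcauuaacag
mmu-miR-155-3p: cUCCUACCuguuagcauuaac
The hairpin lies inside the long non-coding RNA gene Mir155hg, which RefSeq places at chr16:84713023-84715245 on the same strand. Of the 1738 mature mouse strands in the RefSeq table, 1 has this 5p seed, miR-155-5p itself. Values below therefore come from a miRNA with no seed family in that table. The 3p strand has no entry on the array, so the balance between the arms of the hairpin was not measured.

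miR-155 was detected on every array, and its level was higher in KO than in WT cells in each of the 3 conditions. Its level on an array is the summed background-subtracted intensity of its probes, given as a percentage of a scale, the 75th percentile of that array among the 93 miRNAs detected everywhere. Untreated WT cells had 16.8% and 16.2%, a mean of 16.5% ± 0.424 (SD, n = 2). Untreated KO cells had 29.0% and 29.6%, a mean of 29.3% ± 0.423 (SD, n = 2). The untreated groups did not overlap.

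After 12 h of tunicamycin the WT arrays read 14.6% and 13.0%, a mean of 13.8% ± 1.17 (SD, n = 2). The KO arrays read 34.7% and 36.5%, a mean of 35.6% ± 1.22 (SD, n = 2), and both were the highest of all 12 arrays. After 24 h the WT arrays read 9.84% and 11.1%, a mean of 10.5% ± 0.914 (SD, n = 2), and both were the lowest of all 12. The 24 h KO arrays read 30.6% and 31.1%, a mean of 30.8% ± 0.352 (SD, n = 2). Each KO array lay above each WT array, whatever the treatment. The same held with quantile normalization and with a normexp background correction, but not from the software's total signal, the deposited values or a scale over all mouse miRNAs. On that last scale untreated KO replicate 1 had a log2 level of 2.26 and untreated WT replicate 2 one of 2.45, so the untreated groups overlapped. In bulk RNA, fewer cells with miR-155 and less miR-155 per cell cannot be told apart.

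**Figure D1:**
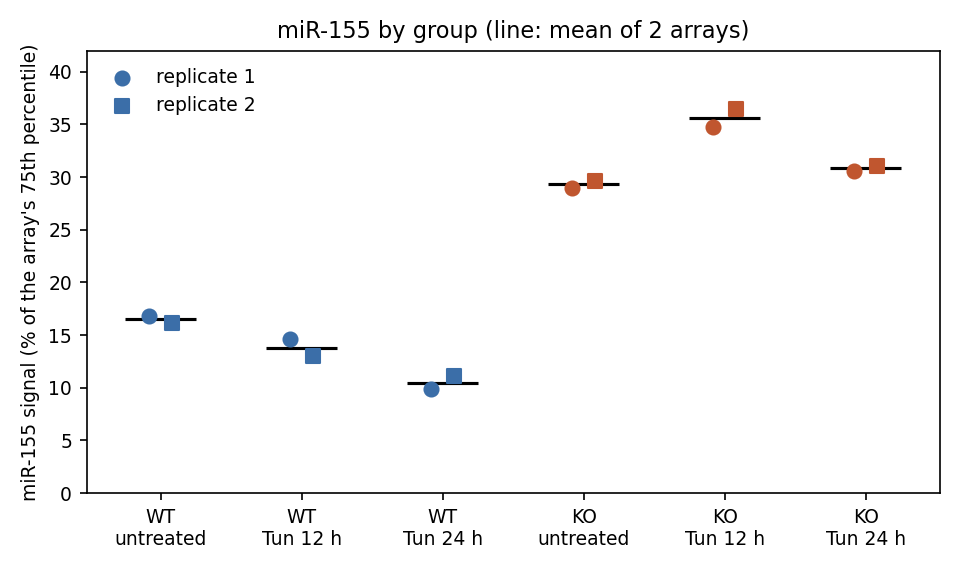
Level of miR-155 on each of the 12 arrays, as a percentage of the array's 75th percentile, in the 6 groups of genotype and treatment (WT in blue, KO in orange, replicate 1 as circles, replicate 2 as squares), with lines at the group means. All 6 KO arrays lie between 29.0% and 36.5%, and all 6 WT arrays between 9.84% and 16.8%.

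On the log2 scale of these scaled levels the order of the group means from lowest to highest was WT at 24 h (-3.26), WT at 12 h (-2.86), untreated WT (-2.60), untreated KO (-1.77), KO at 24 h (-1.70) and KO at 12 h (-1.49). The widest step was the one between untreated WT and untreated KO, a difference of 0.83 against a pooled SD of 0.030. The narrowest step was between untreated KO and KO at 24 h, a difference of 0.074 against a pooled SD of 0.019. No neighbouring groups in this order overlapped, although with 2 arrays a group the SDs are themselves poorly known. As a second scale, the share of the summed signal of all mouse miRNAs that was miR-155 ran from 0.0923% to 0.302%, with a median of 0.195%, and was also higher in KO than in WT cells on every array.

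Every array was measured in 1 of 4 runs. Each run held a WT and a KO array of the same condition, so the genotype difference could be taken within runs. In untreated cells KO exceeded WT by 0.83 on the log2 scale (1.78-fold), with 0.79 in one run and 0.87 in the other. At 12 h of tunicamycin the difference was 1.37 (2.58-fold), with 1.25 and 1.49 within the runs. At 24 h it was 1.56 (2.95-fold), with 1.64 and 1.48. All 6 within-run differences thus had the same direction, and the smallest and the largest were 1.73-fold and 3.11-fold. The 4 treated differences were all larger than both untreated ones on this scale. That order was lost with the scale over all mouse miRNAs, where the untreated differences were 0.25 and 1.11 and the first 12 h difference was 0.90, from the software's total signal, where the second 12 h difference was -0.39, and from the deposited values.

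**Figure D2:**
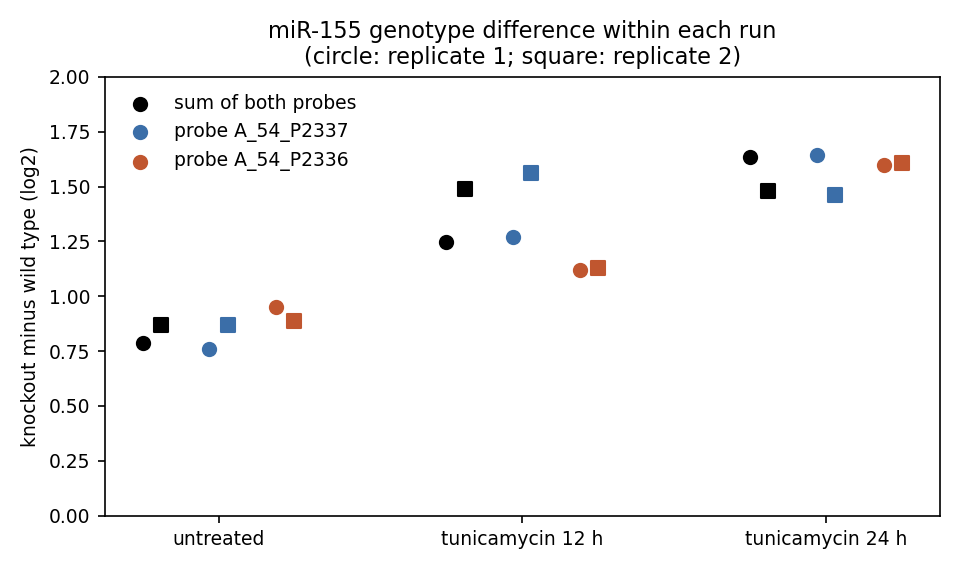
KO minus WT difference in miR-155 within each run, on the log2 scale, for the summed signal and for each of its 2 probes, in untreated cells and after 12 h and 24 h of tunicamycin (circles for replicate 1, squares for replicate 2). The treated squares of probe A_54_P2336 come from arrays where it had no spot well above background. Every point lies above 0, and the sums run from 0.79 to 1.64.

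In untreated cells 23 of the 176 tested miRNAs had a genotype difference of larger size than miR-155, and for 6 of them KO was the higher genotype. The median difference over all was -0.027. At 12 h, 27 miRNAs had a larger size of difference, 19 of them with KO higher, and the median was 0.23. At 24 h, 13 had a larger one, 12 of them with KO higher, and the median was 0.25. These ranks repeat the choice of miR-155 and support nothing further. WT and KO arrays lie in different rows of each slide in all runs, so row and genotype cannot be told apart. The array measures no ATF6b messenger RNA, and the genotype labels were not checked here.

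Tunicamycin was followed by a fall of miR-155 in WT cells, which passed the test at 24 h. miR-155 was chosen with the values of all 6 groups known, and these contrasts share arrays with its genotype differences, so their p-values are not independent of that choice. At 24 h the WT level was 0.66 ± 0.11 (SE) lower on the log2 scale than in untreated WT cells, with a value of -0.66 and a 95% interval of -0.92 to -0.39, or 1.58-fold lower (limma, adjusted p = 0.00268). Both treated arrays lay below both untreated arrays. Of the 176 tested miRNAs, 43.2% passed the same test in this contrast (76, with 24 higher and 52 lower), 99 had a larger size of change than miR-155, 56 of them as a more negative change, and the median change over all was -0.027. At 12 h the WT change was -0.26 with an interval of -0.52 to 0.0078 (limma, adjusted p = 0.114), where 38.1% of the tested miRNAs passed and the median was -0.053. The 2 arrays of that group also lay below both untreated arrays. The 12 h fall passed with quantile normalization (-0.69, adjusted p = 0.0323), and the sign turned with the software's total signal (0.53) and the deposited values (0.70).

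The 24 h fall did not pass where the scale was taken over all mouse miRNAs (-0.72, limma adjusted p = 0.337), with a normexp correction on the array-wide background (-0.11, adjusted p = 0.884), or from the software's total signal, where it was 0.048 (adjusted p = 0.999), and from the deposited values, where it was -0.16 (adjusted p = 0.908). The untreated arrays share 1 slide and the treated arrays the second one, and the effects of slide and of tunicamycin cannot be told apart. With the run as a block the WT fall at 24 h kept its call (adjusted p = 0.00301), while the counts of passing miRNAs in the WT contrasts rose to 102 at 12 h and 115 at 24 h, and those in the KO contrasts to 79 and 88.

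In KO cells miR-155 did not pass the test at either time. At 12 h the change was 0.28 with a 95% interval of 0.015 to 0.55 (limma, adjusted p = 0.122), and both treated arrays lay above both untreated ones. The median change of all tested miRNAs was 0.25 there, 25.6% of them passed, and miR-155 lay 0.033 above that median. At 24 h the KO change was 0.074 with an interval of -0.19 to 0.34 (limma, adjusted p = 0.669), against a median of 0.15 over all miRNAs, of which 30.7% passed. Both KO changes thus lay close to the median miRNA of those cells, with intervals that reach 0.55 and 0.34. Their sign depended on the processing: quantile normalization gave -0.13 and -0.17, and the deposited values -0.61 and -0.19.

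**Figure D3:**
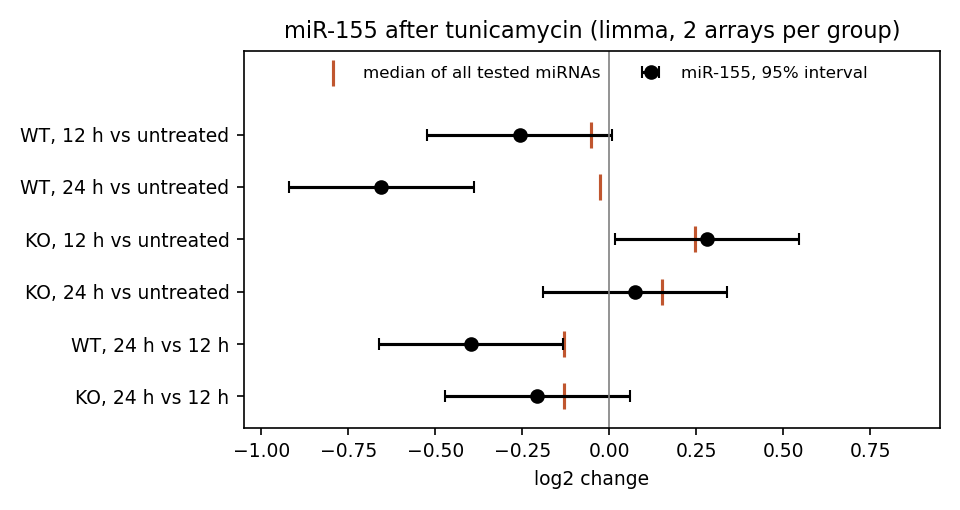
Change of miR-155 on the log2 scale for the 4 tunicamycin contrasts and the 2 contrasts of 24 h against 12 h, with 95% intervals from limma and the median change over all 176 tested miRNAs. The interval of WT cells at 24 h, -0.92 to -0.39, lies wholly below 0, and the KO changes lie near the median of all miRNAs.

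Between 12 h and 24 h of tunicamycin miR-155 did not pass the test in either genotype. In WT cells it changed by -0.40 with an interval of -0.66 to -0.13 (limma, adjusted p = 0.243), where 1.14% of the tested miRNAs passed. Within the runs the WT changes were -0.57 and -0.22. In KO cells the change was -0.21 with an interval of -0.47 to 0.059 (limma, adjusted p = 0.676), where 0.568% passed, and the runs gave -0.18 and -0.23. The medians over all miRNAs were -0.13 in both genotypes. All 4 within-run changes were below 0 on this scale. In the second run the sign turned with quantile normalization (0.057 in WT and 0.10 in KO cells) and with the normexp correction (0.28 and 0.030), and in KO cells also from the software's total signal and from the deposited values (1.13).

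The difference between the genotypes in the response to tunicamycin, KO minus WT, was 0.54 at 12 h and 0.73 at 24 h on the log2 scale. The median over all tested miRNAs was 0.37 and 0.44, and 103 and 70 of the 176 had a larger size of difference. This difference was known when miR-155 was chosen and was not tested. The 4 response values stand on the same untreated arrays at both times.

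miR-155 was read by 2 probes, each printed at 10 spots, which share the RNA and the array and are not replicates of the condition. The bright probe, A_54_P2337, had mean spot intensities of 24.8 to 150.7, and all its spots stood well above background on all 12 arrays. Its spots varied with a median coefficient of variation of 7.91%. The dim probe, A_54_P2336, had mean intensities of 3.78 to 32.1 and a median coefficient of variation of 24.5%. All 10 of its spots were well above background on 1 array and none were on 4, the 4 treated arrays of replicate 2. Negative control spots had means of 1.44 to 4.90, and on WT at 24 h, replicate 2, the dim probe lay 0.314 of their SD above them. On replicate 2 of KO at 24 h, WT at 12 h and KO at 12 h it lay 1.92, 2.61 and 3.04 SD above them. WT at 24 h, replicate 1, where 4 spots were well above background, lay at 3.01. Values of the dim probe on those 4 arrays of replicate 2 are therefore near background and are not read as levels.

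The bright probe gave KO above WT in each of the 6 within-run comparisons. For A_54_P2337 the KO minus WT differences were 0.76 and 0.87 untreated, 1.27 and 1.56 at 12 h, and 1.64 and 1.46 at 24 h. For A_54_P2336 they were 0.95 and 0.88 untreated, and in the first treated run 1.12 at 12 h and 1.60 at 24 h. In the second treated run this probe had no spot well above background, and no difference is given. Where both probes had spots well above background they gave the same genotype order, which the choice of miR-155 had used.

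For tunicamycin the bright probe changed by -0.28 at 12 h and -0.62 at 24 h in WT cells, and by 0.33 and 0.12 in KO cells. Its treated and untreated arrays did not overlap in any of these 4 contrasts. The dim probe was well above background at any spot on 1 of the 2 arrays of each treated group only, so the 24 h fall in WT cells rests on the bright probe.

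The software's own total for miR-155 departed from its probes on 3 arrays, all treated replicate 2 arrays. On the other 9 arrays the total gene signal equalled the sum of the 2 probe totals, with a ratio of 1.00. On WT at 12 h, replicate 2, it was 149.3 against a probe sum of 41.1, which is 3.63 times as much. On WT at 24 h, replicate 2, it was 73.8 against 19.0, or 3.90 times, and on KO at 24 h, replicate 2, it was 130.5 against 42.9, or 3.04 times. The KO array at 12 h of the same run had no such excess. Totals more than 5% above the probe sum were found for 43 to 66 detected mouse miRNAs on each array (median 51.5), and totals of at least 3 times the probe sum for 31 to 52 (median 39.0).

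**Figure D4:**
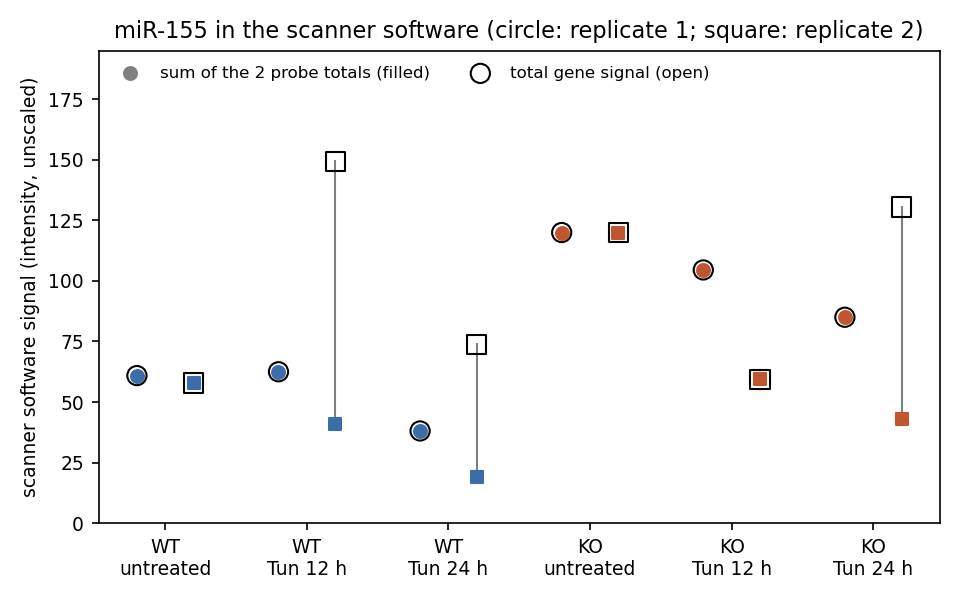
The scanner software's signal for miR-155 on each of the 12 arrays, in unscaled intensity, as the sum of its 2 probe totals (filled) and as the total gene signal (open), joined by a line, with WT in blue, KO in orange, replicate 1 as circles and replicate 2 as squares. The open and filled marks coincide on 9 arrays and stand apart on 3 treated arrays of replicate 2, at 149.3 against 41.1, 73.8 against 19.0 and 130.5 against 42.9.

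This matters for the values the authors deposited, because for detected mouse miRNAs the deposited log2 value is the log2 of that total with no scaling between arrays. In the deposited values miR-155 read 5.97 and 7.22 in WT cells at 12 h, and 6.71 and 5.89 in KO cells, so the groups overlap. The mean KO minus WT difference there was -0.29, with 0.74 in one run and -1.33 in the other. In untreated cells, where no total departed from its probes, the deposited values were 5.93 and 5.85 in WT cells and 6.91 and 6.91 in KO cells. At 24 h they were 5.25 and 6.21 in WT cells and 6.41 and 7.03 in KO cells, with no overlap, although 1 array of each group held a departing total. The genotype order in untreated cells and at 24 h was therefore the same in both sets of values, and at 12 h it was not. What made the totals exceed the probe sums was not tested.

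The miRNAs most like miR-155 over the 12 arrays, by Pearson's r of the scaled log2 values against the 92 others detected on all arrays, were miR-193b (r = 0.91), miR-23b (0.89), miR-337-5p (0.88), miR-143 (0.87) and miR-434-3p (0.87). The median r was 0.35, and 13 of the 92 exceeded 0.8. The arrays share slides, scale and genotype, so these values describe a shared pattern only. In each of the 5, all KO arrays lay above all WT arrays within each of the 3 conditions. They were picked by likeness to a profile with that order, so this follows largely from the choice. The share of all 92 with that order was not counted. Their sizes were unlike. miR-193b had KO minus WT differences of 0.44 untreated, 0.73 at 12 h and 0.88 at 24 h, a graded pattern like that of miR-155 but smaller. miR-143, which is abundant in smooth muscle and fibroblasts, had 0.46, 2.51 and 2.36. miR-23b had 0.30, 2.20 and 2.22, and miR-434-3p had 0.28, 1.68 and 1.76, while miR-337-5p had 0.33, 0.31 and 0.34. Among these, miR-155 had the largest difference in untreated cells, which repeats its choice by such differences. The least alike were miR-29a (r = -0.70) and miR-25 (-0.67).

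Other miRNAs linked to inflammation and NF-kB were read on the same arrays. The list of 21 was chosen with earlier results of these data known. All 21 were on the array, 10 were detected on none of the 12 arrays, and 11 were tested. Non-detection was common, as each array detected 114 to 189 of the 611 mouse miRNAs. The undetected ones included miR-146a, a classic NF-kB target that restrains Toll-like receptor signalling, and its paralogue miR-146b. They also included miR-223 and both strands of miR-142, which are made in blood cells. KO exceeded WT in 2 of the 11 tested members in untreated cells, in 3 at 12 h and in 6 at 24 h, with median differences of -0.32, -0.064 and 0.028, against -0.027, 0.23 and 0.25 over all tested miRNAs. The share of all tested miRNAs with KO above WT was not counted, and these counts of 11 members are not read as a result. miR-181a, best known from lymphocytes, was higher in KO cells in all 3 conditions, by 0.18, 0.19 and 0.53. It was detected on only 8 of the 12 arrays, and it was picked out here after its values were seen. miR-181b, on the same list and also detected on 8 arrays, had 0.88, -0.064 and 0.16.

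After tunicamycin in WT cells 1 of the 11 fell at 12 h and 3 fell at 24 h, and none rose, while 23.9% and 29.5% of all tested miRNAs fell. The one at 12 h was the hypoxia-induced miR-210, for which no size is given. It was detected on 2 arrays only, those of untreated WT cells, and entered the test through that group. Its fall to the floor at both times follows from how it passed the filter and is not read as a result. The others at 24 h were miR-221 (-0.70, limma adjusted p = 0.028) and miR-99b (-0.84, adjusted p = 0.039). In KO cells 1 rose at 12 h, miR-29b (0.98, adjusted p = 0.012), and 2 rose at 24 h, miR-29b (0.80, adjusted p = 0.030) and let-7e (0.72, adjusted p = 0.033), while 21.6% and 25.6% of all tested miRNAs rose. None of the 11 fell in KO cells, where 3.98% and 5.11% of all did. miR-21, an abundant fibroblast miRNA that AP-1 can induce, had changes of -0.047 and 0.029 in WT cells and 0.41 and 0.30 in KO cells, and its KO minus WT differences were -0.25, 0.21 and 0.028. The list's median changes in the 4 tunicamycin contrasts were -0.15, -0.51, -0.029 and 0.

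Of the 7 miRNAs linked to AP-1, 5 were tested. In WT cells 2 fell at 12 h and 3 fell at 24 h (miR-31, miR-143 and miR-221), beside 23.9% and 29.5% of all tested miRNAs. None of the 5 passed in KO cells in either direction, where 25.6% and 30.7% of all passed. With 5 members these counts are not read as a result. miR-132, which is induced by CREB and shared with the inflammation list, was not detected on any array.

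miR-155 is abundant in blood cells, so markers of other cell types were read on the same arrays. All 7 blood and immune markers, among them miR-142, miR-223, miR-150 and miR-451, were detected on none of the 12 arrays, and their summed level was 0.618% to 7.78% of the 75th percentile. The sums were 1.75% to 3.70% on treated KO arrays and 0.618% to 1.61% on treated WT arrays. Untreated, they were 0.783% to 7.78% in KO and 1.32% to 2.26% in WT cells. Each sum adds 7 undetected signals, and these differences were not tested. The 2 endothelial markers, the strands of miR-126, were also detected on none. Each array detected 114 to 189 of the 611 mouse miRNAs, so non-detection was common and is not read as absence of a cell type. Of the 15 fibroblast markers 14 were on the array and 10 to 13 were detected on each array. Of 13 tested, 9 fell at 12 h and 8 at 24 h in WT cells, against 23.9% and 29.5% of all tested miRNAs. In KO cells 1 rose and 1 fell at 12 h, beside 21.6% and 3.98% of all tested miRNAs. At 24 h none rose and 1 fell there, beside 25.6% and 5.11%. Of 8 epithelial markers, 3 to 5 were detected on each treated KO array and none in the other groups. Their summed level was 265% to 384% of the 75th percentile on those KO arrays and at most 1.88% elsewhere, while miR-429, miR-203 and miR-205 were detected on no array. The genotype differences of miR-155 were 0.83 in untreated cells, 1.37 at 12 h and 1.56 at 24 h. Any part of the epithelial markers in these differences was not tested.

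Across the arrays the software detected 114 to 189 mouse miRNAs, and the 75th percentile used as scale ran from 208 to 623 intensity units. Before scaling, the summed miR-155 intensity ranged from 28.6 to 180.8, and no spot was saturated. The p-values rest on the spread between 2 experiments per group, with 1 estimate of spread shared by all groups. Treated arrays of the same run deviated together, with correlations of 0.76 to 0.91. That estimate therefore rests on fewer independent values than the number of arrays. It holds no spread between slides, which the contrasts of treated against untreated cells cross.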

How the data were processed

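Mature miRNAs were measured in 12 fibroblast RNA samples on 1-colour arrays. The authors deposited scanner tables of linear spot intensity and a table of log2 values. The submitters' processing notes name Agilent Feature Extraction 10.7.1.1. For the mouse miRNAs detected on each array, the deposited log2 values match log2 of the total gene signal that software reports, within 1.18e-06. Undetected entries were not compared. Column medians of the deposited values were 5.70 to 6.87. Here, background-subtracted intensities of a probe's spots were averaged without outlier spots, the probes of a miRNA were summed, and sums were divided by the 75th percentile of the 93 miRNAs that every array detected, floored at 0.0191 (-5.71 on the log2 scale) and put on the log2 scale. The test was limma 3.58.1 in R 4.3.3 over the 176 mouse miRNAs that 1 or more groups detected on both their arrays, two-sided, with Benjamini-Hochberg adjustment and a threshold of 0.05. It was also tried on simulated data with independent noise on each array. Arrays of the same run were correlated here, so that trial does not show how the p-values behave on these data. Array number limits the precision.

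The miRNA and the lists were chosen with earlier results of these data known. Named miRNAs were miR-155, the 5 most and 2 least correlated ones, and members of the lists. The array names in the labels place same-numbered arrays of a slide in 1 run. Their deviations from group means correlated at 0.48 for untreated and 0.76 to 0.91 for treated groups, and at -0.38 to -0.05 between slides. The alternatives were scale, background correction, quantile normalization, total signal, deposited values, single probes, blocks and leaving out each array.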

Additional observations from a re-analysis of the deposited data

Results flagged for a closer look

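At 12 h of tunicamycin both WT arrays lay below and both KO arrays above their untreated arrays for miR-155, and the KO minus WT response difference was 0.54 on the log2 scale. Neither change by itself passed the test (limma, adjusted p = 0.114 in WT and 0.122 in KO cells). The same pattern at 24 h gave 0.73. These response differences were not tested, because miR-155 had been chosen with them known. The opposite directions depended on the processing. At 12 h quantile normalization gave a lower level in both genotypes (-0.69 and -0.13), the software's total signal a higher one in both (0.53 and 0.20), and the deposited values the reverse order (0.70 in WT and -0.61 in KO cells). The response differences were -0.33 and 0.55 from the software's total signal, and -1.31 and -0.024 from the deposited values.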

How the results depend on the processing

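Each of the 6 tested contrasts was recomputed under 23 alternatives. The fall in WT cells at 24 h passed in 19 of them, with limma adjusted p from 0.00171 to 0.999. The blocks, the lack of a detection filter and leaving out arrays of other groups could not move its size of -0.66. These passes therefore add little. Of the other scales, background correction and software values, only quantile normalization passed (-0.77, limma adjusted p = 0.0207). Another pass was probe A_54_P2336 alone, which had no spot well above background on WT at 24 h, replicate 2. Leaving out 1 array at a time changed no call or direction of miR-155, and gave -0.57 to -0.74 for that fall. With the replicate block it was -0.66 (limma, adjusted p = 0.00171) and neither that block nor the run block changed a miR-155 call. The run block raised the counts of passing miRNAs in the 4 tunicamycin contrasts, in the order WT 12 h, WT 24 h, KO 12 h and KO 24 h, from 67, 76, 45 and 54 to 102, 115, 79 and 88, and the scale over all mouse miRNAs lowered them to 3, 2, 12 and 9. From the deposited values none passed, against 28, 16, 7 and 14 at an unadjusted p under 0.05.

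With the scale over all mouse miRNAs, the WT change at 24 h was -0.72 (adjusted p = 0.337), the KO change at 24 h -0.16, KO minus WT 0.68 untreated, 1.02 at 12 h and 1.24 at 24 h, and the response differences 0.34 and 0.56. With quantile normalization the WT change at 12 h was -0.69 and passed (adjusted p = 0.0323), the KO changes were -0.13 and -0.17, and KO minus WT was 0.63, 1.19 and 1.23. With normexp on the array-wide background, added after seeing the data because the planned local-background fit diverged on 1 array and was discarded, the WT change at 24 h was -0.11 (adjusted p = 0.884), KO minus WT 0.38, 0.85 and 0.76, and the 24 h response difference 0.38. From the software's total signal the WT changes were 0.53 and 0.048 (adjusted p = 0.999 at 24 h), the KO change from 12 h to 24 h was 0.40, KO minus WT 0.45 at 12 h and 1.33 at 24 h, and the response differences -0.33 and 0.55. From the deposited values the WT changes were 0.70 and -0.16 (adjusted p = 0.908 at 24 h), the KO changes -0.61 and -0.19, the KO change from 12 h to 24 h 0.42, KO minus WT 1.01, -0.29 and 0.99, and the response differences -1.31 and -0.024. From probe A_54_P2336 alone, which had no spot well above background on 4 treated arrays, the KO change at 24 h was -0.14, KO minus WT at 12 h 1.12 and the 12 h response difference 0.21. The cause of these shifts was not tested.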
